A study of Mus musculus with 24 samples.

Results

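The 10 genes described here code for the mouse MHC class I antigen presentation machinery: the heavy chains H2-K1, H2-D1 and H2-T23, the light chain B2m, the peptide loading factors Tap1 and Tapbp, the inducible catalytic proteasome subunits Psmb8, Psmb9 and Psmb10, and the transcriptional regulator Nlrc5. They were taken by gene symbol from a table of 43629 gene identifiers, and each symbol matched 1 row. The table holds total RNA of bone marrow-derived macrophages (BMDMs, macrophages grown from bone marrow precursors) of C57BL/6 mice, labelled as postnatal week 10. CITED2-KO cells, which lack the transcriptional co-regulator CITED2, and wild type (WT) cells were each given LPS (a bacterial cell wall component), IFNg (interferon gamma) or IL4 (interleukin 4), or left as controls, with 3 libraries in each of the 8 groups. How Cited2 was deleted, the doses and times of treatment, and whether the libraries of a group came from separate mice or cultures are not given in the sources used here, so that the p-values measure the spread between these libraries, which may be technical.

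MHC class I molecules carry short peptides of intracellular proteins to the cell surface, where CD8 T cells and natural killer cells read them. The peptides are cut by the proteasome, whose constitutive catalytic subunits can be replaced by the inducible subunits of the immunoproteasome. They are moved into the endoplasmic reticulum by the TAP transporter and are loaded with the help of tapasin onto a heavy chain paired with beta-2 microglobulin. Interferon gamma is the classical inducer of the pathway, and NLRC5 acts in the nucleus as the transactivator of class I genes in the way CIITA acts for class II genes. Macrophages are antigen-presenting cells that raise these genes on activation.

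Class I promoters are known for a compact upstream region with sites for NF-kB, interferon regulatory factors and the factors that recruit NLRC5. The stretches before the transcription starts of a heavy chain gene and of the light chain gene are shown because both genes rose with every treatment, with those letters in capitals that matched 1 of 5 motifs searched on both strands: GGGATTCCC (NF-kB type), GAAANNGAAA (core of the interferon-stimulated response element), TTCNNNGAA (gamma-activated site), TGACG and CCAAT. The H2-K1 stretch is chr17:34000348-34000547 on the minus strand and the B2m stretch chr2:122147487-122147685 on the plus strand, both from RefSeq on GRCm38.p6 and written 5′ to 3′ along the gene.
H2-K1: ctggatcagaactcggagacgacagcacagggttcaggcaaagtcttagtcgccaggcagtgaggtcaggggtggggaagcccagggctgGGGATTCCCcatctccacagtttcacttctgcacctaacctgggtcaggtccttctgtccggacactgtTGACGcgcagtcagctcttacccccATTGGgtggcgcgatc
B2m: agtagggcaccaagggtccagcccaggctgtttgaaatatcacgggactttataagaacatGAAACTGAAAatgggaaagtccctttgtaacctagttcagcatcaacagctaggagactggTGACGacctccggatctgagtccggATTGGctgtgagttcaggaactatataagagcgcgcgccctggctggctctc

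No printed match overlapped another. Beside these, 30 bases of H2-D1 at chr17:35262913-35262942 (plus strand) and 30 bases of H2-T23 at chr17:36032806-36032835 (minus strand) are shown for the same motifs in the other heavy chain genes. In H2-T23 the response element core lies on the opposite strand and so reads as its reverse complement.
H2-D1: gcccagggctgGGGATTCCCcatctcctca
H2-T23: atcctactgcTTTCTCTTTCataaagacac

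The RefSeq promoter table (250 bases before to 50 after each start, 32851 windows) held 9 of the 10 genes. The NF-kB-type letters occurred in H2-K1 and H2-D1, with the first letter at positions -110 and -170 from the RefSeq start, and in 0.353% of all windows. The GENCODE spans of H2-D1 and H2-T23 given below begin farther upstream, so that the bases printed for these 2 genes lie inside them. The response element core occurred in H2-T23 and B2m and in 3.44% of all windows. The gamma-activated letters were found in Psmb8 and in 8.30% of all windows, TGACG in H2-K1, H2-D1, B2m, Tap1 and Psmb9 and in 20.8%, and CCAAT in 7 of the 9 genes and in 37.4%. The RefSeq starts of Tap1 and Psmb9 lie 226 bases apart on opposite strands, so that their windows share bases. A match describes letters only, and the absence of one says nothing about a factor.

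The libraries held between 1478507 and 73409343 reads (median 29551522), and 3 of them were shallower than the next by a wide margin: KO LPS 1 with 1478507, WT LPS 1 with 7921412 and WT control 3 with 7818719, against 15893968 in the next. Even in the shallowest library every one of the 10 genes had at least 183 reads. Cited2 averaged between 11.7 and 48.7 normalised reads in the 4 KO groups, against 1148 to 3593 in the 4 WT groups. The 7 macrophage markers found of 8 listed summed to between 100902 and 163341 normalised reads in every library. Beside these, 8 T and NK cell markers summed to at most 70.9, 5 B cell markers to at most 27.2 and 6 neutrophil markers to at most 284. For 5 fibroblast markers the highest sum was 697, and for 5 dendritic cell markers 845. In bulk RNA, a change in the number of cells of a type and a change in RNA per cell cannot be told apart.

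All values below are normalised read counts, the deposited reads scaled by 1 factor per library, and differences are on the log2(value + 1) scale with their standard errors. A gene was called changed at an adjusted p below 0.05 (limma fitted to 18637 genes over all 24 libraries, with Benjamini-Hochberg adjustment over all of them). Leaving out the 3 shallowest libraries changed 5 calls on the 10 genes: between KO and WT, Nlrc5 became called with LPS (limma adjusted p = 0.042) and was lost in controls (limma adjusted p = 0.16), and Psmb8 in the LPS interaction (limma adjusted p = 0.065) and H2-D1 and H2-T23 between IFNg and LPS in KO cells (limma adjusted p = 0.13 and 0.056) were lost.

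LPS and IFNg raised all 10 genes in both genotypes, and IL4 raised 9 of the 10, the exception being H2-D1. The values of all genes summed to between 34930113 and 37512449 in KO LPS and between 31791425 and 33267115 in WT LPS libraries. Control sums lay between 19908126 and 20003481 in KO and between 18992840 and 19182569 in WT cells, and IFNg sums between 25510874 and 27192151. A rise in value, as of H2-D1 with LPS, is thus not always a rise in share of all reads. How the factor was derived is not given in the sources used here. With LPS, 10 of 10 were called higher in KO cells, where 24.5% of all genes tested were called higher and 32.5% lower. In WT cells LPS also raised 10 of 10, against 25.5% of all genes higher and 27.8% lower. The median difference of the 10 genes was 2.33 in KO and 2.54 in WT cells, beside medians over all genes of -0.21 and -0.06. The KO median over all genes depended on the method, moving by 0.26 with DESeq2 and 0.11 with edgeR. The 10 genes had median shifts of 0.00 and -0.04. With IFNg, 10 of 10 were called higher in KO cells (22.3% of all genes higher, 23.7% lower) and 10 of 10 in WT cells (22.5% higher, 22.6% lower), with medians of 1.92 in KO and 2.25 in WT cells beside -0.08 and 0.00 over all genes. IL4 raised 9 of 10 in KO cells, where 12.6% of all genes were called higher and 10.5% lower, and 9 of 10 in WT cells, where 10.6% were higher and 9.56% lower. Its median was 1.12 in KO and 0.92 in WT cells, beside 0.00 over all genes in both. Fibroblast markers summed to between 496 and 655 in KO LPS and between 613 and 697 in WT LPS libraries, against 226 to 289 in KO and 283 to 344 in WT controls. Neutrophil markers summed to between 88.9 and 97.7 in KO IFNg and between 101 and 116 in WT IFNg libraries and to between 29.0 and 43.7 in KO IL4 and between 78.2 and 105 in WT IL4 libraries, against 181 to 207 in KO and 189 to 220 in WT controls. Dendritic cell markers summed to between 657 and 701 in KO IFNg and between 753 and 845 in WT IFNg libraries. In controls they summed to between 6.13 and 15.8 in KO and between 8.09 and 18.7 in WT cells. The part of these markers in the responses was not tested.

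**Figure D1:**
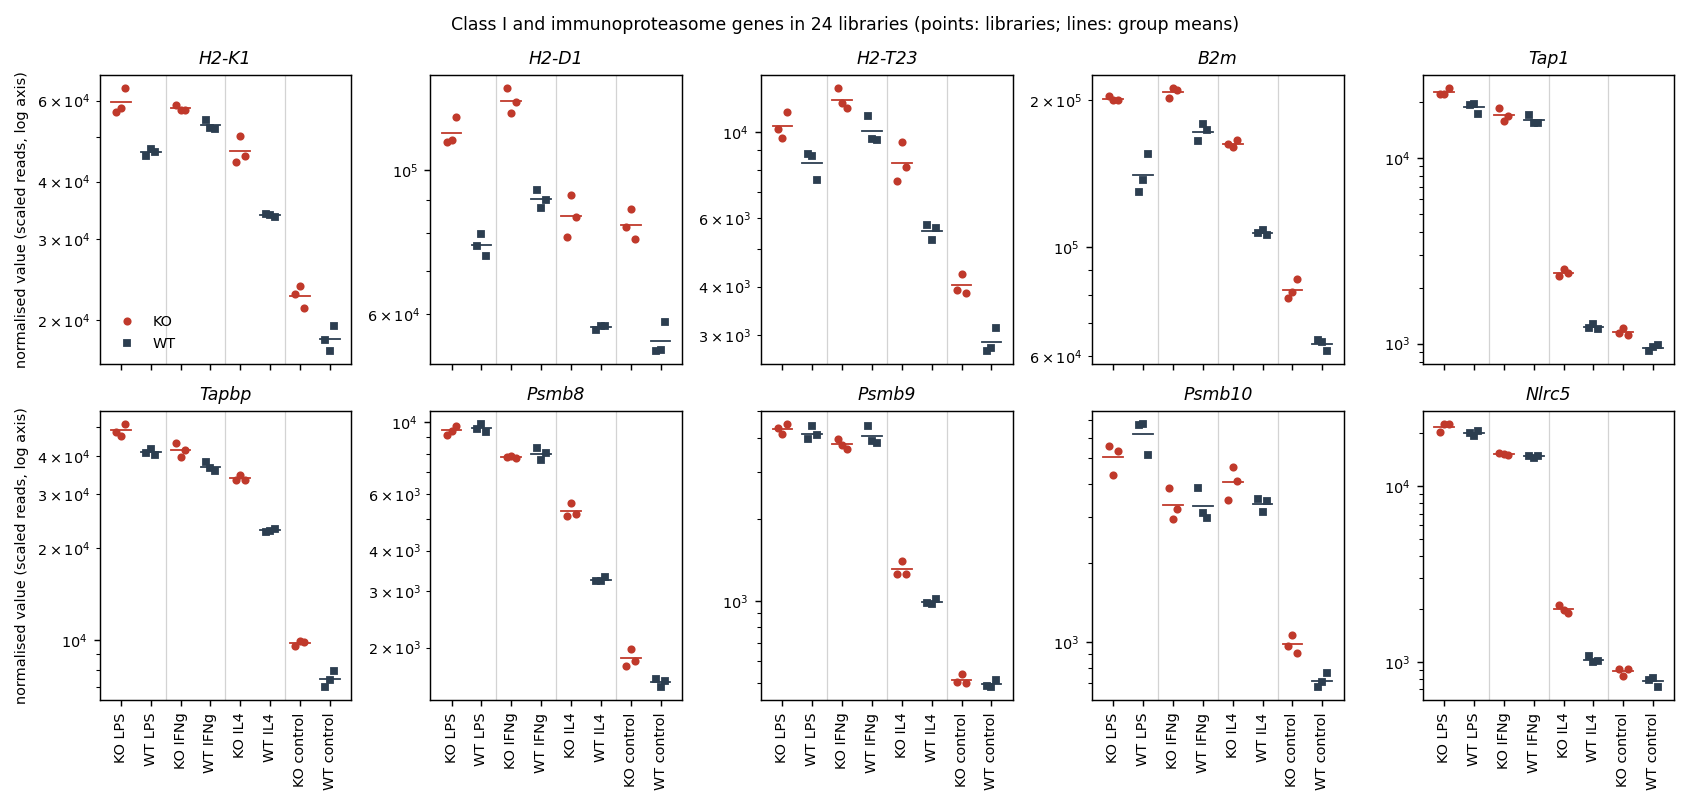
Normalised read counts (log axis) of the 10 genes in the 24 libraries, by group; circles are KO libraries, squares WT libraries and lines group means. Every gene is higher with LPS and IFNg than in controls of the same genotype, and Tap1 and Nlrc5 stand highest above their controls with these treatments.

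**Figure D2:**
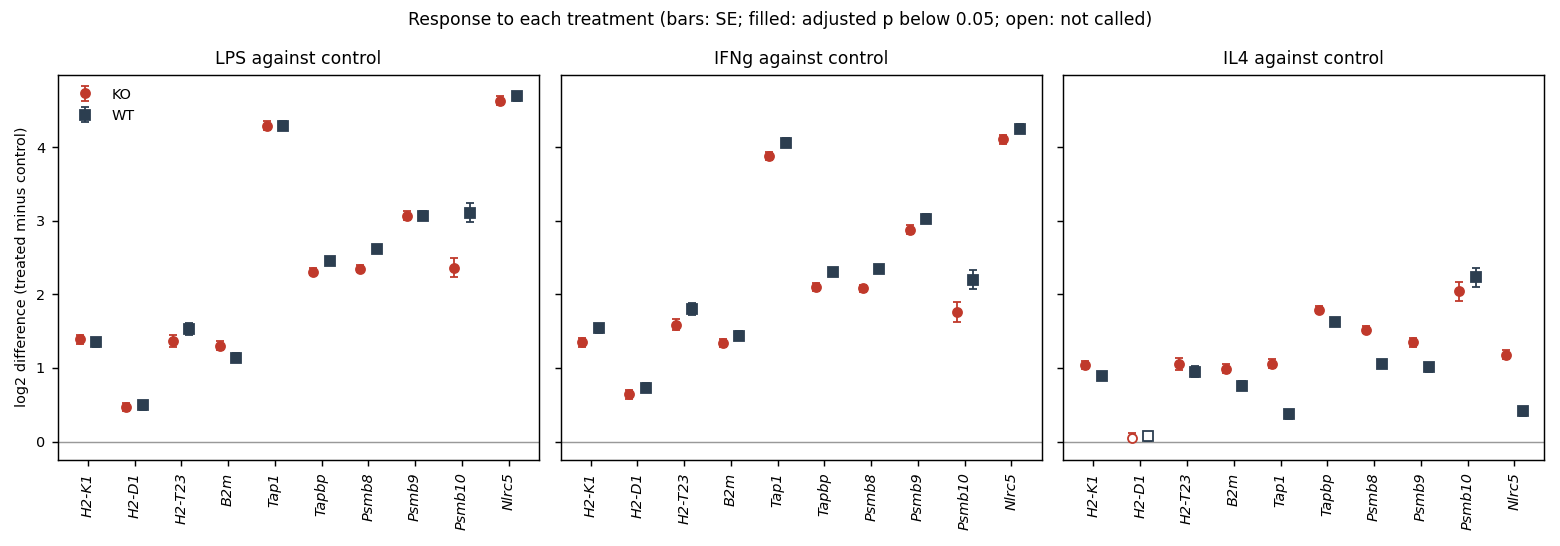
Log2 difference between treated and control libraries of the same genotype for each gene, with standard errors; circles are KO, squares WT, and open symbols were not called. Nlrc5 and Tap1 lie between 3.88 and 4.69 with LPS and IFNg and between 0.37 and 1.18 with IL4, and H2-D1 is the lowest in every panel.

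In the absence of treatment, 9 of the 10 genes were higher in KO than in WT cells, by 1.14- to 1.51-fold, and the tenth, Psmb9, was not called. Of the 9, Psmb10 and Nlrc5 depended on single libraries, and Nlrc5 also on the processing, as described below. Over all genes 4.11% were called higher and 3.05% lower in this comparison, and the median of the 10 genes was 0.34 beside 0.00 over all genes. With IL4, 9 of 10 were higher in KO cells, all but Psmb10, where 6.14% of all genes were called higher and 3.14% lower; the median was 0.57. With LPS, 6 of 10 were higher in KO cells (9.70% of all genes higher, 12.5% lower): H2-K1, H2-D1, H2-T23, B2m, Tap1 and Tapbp. The Tapbp call was lost with only the libraries compared (limma adjusted p = 0.072). Values of all genes summed to between 34930113 and 37512449 in KO LPS and between 31791425 and 33267115 in WT LPS libraries. As shares of all reads, the KO excesses with LPS are therefore smaller. Over all genes, higher calls made up 43.7% of the calls with LPS, and 54.0% with DESeq2. With IFNg, 4 of 10 were higher (4.83% of all genes higher, 4.21% lower): H2-D1, H2-T23, B2m and Tapbp. The calls of H2-T23 and Tapbp depended on single libraries, and that of H2-T23 also on the processing, as described with each gene. No gene of the 10 was called lower in KO cells in any of the 4 comparisons. T and NK cell markers summed to between 62.1 and 70.9 in KO LPS and between 28.5 and 54.7 in WT LPS libraries, and to between 44.7 and 62.7 in KO IFNg and between 27.8 and 41.6 in WT IFNg libraries, and B cell markers to between 18.5 and 23.6 in KO LPS and between 6.33 and 12.2 in WT LPS libraries. A single read counts as 23.6 normalised reads in KO LPS 1 and as 4.08 in WT LPS 1. The marker sums of these shallow libraries therefore rest on few reads. Among the T and NK cell markers Ifng, which codes for interferon gamma, had a median of 0.978 and a highest value of 22.1 over all libraries. The part of all these markers in the differences was not tested.

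**Figure D3:**
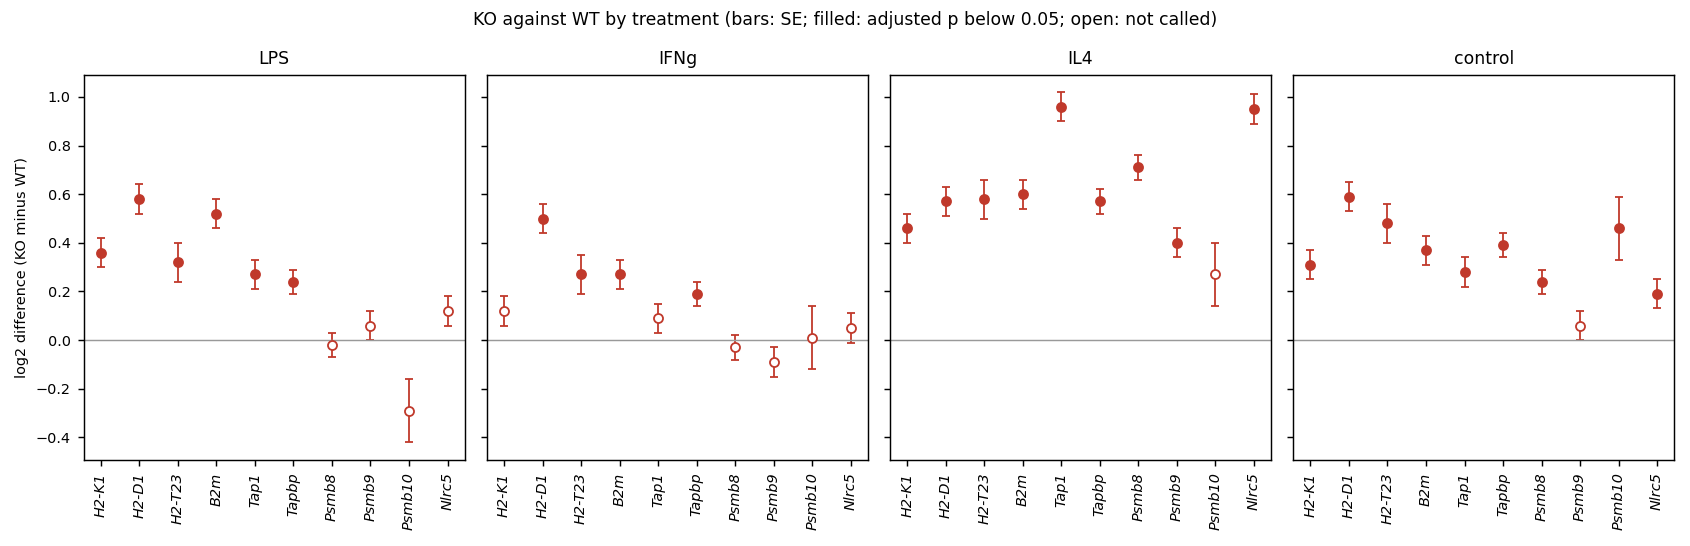
Log2 difference between KO and WT libraries with the same treatment for each gene, with standard errors; filled circles were called and open circles were not. With IL4 the values run from 0.27 to 0.96, with Tap1 and Nlrc5 highest, and with LPS they run from -0.29 for Psmb10 to 0.58 for H2-D1.

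Whether the genotypes responded differently was tested with an interaction term, the KO response minus the WT response. For IL4 it was called higher for 4 of 10 genes (Tap1, Psmb8, Psmb9 and Nlrc5) and lower for 0, where 2.45% of all genes were called higher and 1.15% lower; higher calls made up 68.0% of these, and 55.7% with edgeR. For LPS it was called lower for 2 of 10 (Psmb8 and Psmb10), where 4.29% of all genes were called higher and 4.50% lower. For IFNg it was called lower for 1 of 10 (Psmb8), where 1.32% were higher and 1.18% lower.

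H2-K1, a classical class I heavy chain (chromosome 17, 33996017 to 34000347, minus strand, GRCm38), had 56653, 57720 and 63986 normalised reads in KO LPS libraries and 45562, 47118 and 46444 in WT LPS libraries. IFNg gave 58578, 57219 and 57321 in KO and 54554, 52427 and 52072 in WT cells. With IL4 it had 44156, 50276 and 45450 in KO and 34090, 33854 and 33533 in WT cells, and controls had 22868, 23694 and 21236 in KO and 18136, 17203 and 19410 in WT cells. KO libraries thus lay above all WT libraries under each treatment without overlap. LPS raised it by 1.39 ± 0.06 in KO and 1.35 ± 0.06 in WT cells, IFNg by 1.35 ± 0.06 in KO and 1.54 ± 0.06 in WT cells, and IL4 by 1.04 ± 0.06 in KO and 0.89 ± 0.06 in WT cells. KO cells exceeded WT cells 1.28-fold with LPS (limma adjusted p = 5.8e-05), 1.38-fold with IL4 (limma adjusted p = 2.7e-06) and 1.24-fold in controls (limma adjusted p = 7.3e-04). The 1.09-fold difference with IFNg was not called (limma adjusted p = 0.26). KO LPS and KO IFNg libraries overlapped at the top of its order, and KO IL4 and WT LPS libraries overlapped lower down.

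H2-D1, the other classical heavy chain (chromosome 17, 35262730 to 35267499, plus strand), had the smallest response of the 10 genes to each treatment and was higher in KO cells in every condition. It had 110401, 111484 and 120948 normalised reads in KO LPS libraries, against 76433, 79683 and 73726 in WT LPS libraries. With IFNg the values were 134155, 122674 and 127298 in KO and 93322, 87472 and 89889 in WT cells. With IL4 they were 78831, 91751 and 84688 in KO and 56691, 57474 and 57432 in WT cells, and in controls 81707, 87132 and 78284 in KO and 52677, 52821 and 58213 in WT cells. Untreated KO libraries overlapped with KO IL4 libraries, and 2 of the 3 lay above every WT LPS library. LPS raised the gene by 0.47 ± 0.06 in KO and 0.49 ± 0.06 in WT cells and IFNg by 0.64 ± 0.06 in KO and 0.73 ± 0.06 in WT cells, while IL4 gave 0.05 ± 0.06 in KO (limma adjusted p = 0.73) and 0.07 ± 0.06 in WT cells (limma adjusted p = 0.56). The KO excess was 1.49-fold with LPS, 1.42-fold with IFNg, 1.48-fold with IL4 and 1.51-fold in controls (limma adjusted p = 2.3e-07, 3.3e-06, 3.1e-07 and 3.1e-07). Its interaction terms lay between -0.09 and -0.02 with standard errors of 0.09 and were not called (limma adjusted p of 0.94 to 0.99).

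H2-T23 (chromosome 17, 36029773 to 36032855, minus strand) codes for Qa-1, a non-classical class I molecule recognised by inhibitory receptors of natural killer cells. Its group means ran from 12153 ± 784 in KO IFNg libraries and 10071 ± 836 in WT IFNg libraries (SD, n = 3 each) to 4029 ± 240 in KO and 2882 ± 215 in WT controls. KO cells exceeded WT cells by 0.32 ± 0.08 with LPS (limma adjusted p = 0.0071), 0.58 ± 0.08 with IL4 (limma adjusted p = 2.4e-05) and 0.48 ± 0.08 in controls (limma adjusted p = 3.2e-04). With IFNg the excess was 0.27 ± 0.08 (limma adjusted p = 0.042), and it was no longer called without KO IFNg 1, 2 or 3 or WT IFNg 2 or 3 (limma adjusted p = 0.20, 0.073, 0.052, 0.17 and 0.18). The call was also lost with no filter and with median centring (limma adjusted p = 0.063 and 0.051). IFNg raised H2-T23 by 1.59 ± 0.08 in KO and 1.80 ± 0.08 in WT cells and LPS by 1.37 ± 0.08 in KO and 1.53 ± 0.08 in WT cells. KO LPS and WT IFNg libraries overlapped, as did KO IL4 and WT LPS libraries.

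Heavy chain genes resemble each other, which limits how far their reads can be told apart. Of all stretches of 50 bases in the GENCODE M21 transcripts of a gene, 8.79% of those of H2-K1, 14.3% of those of H2-D1 and 29.8% of those of H2-T23 also occur in another gene. How reads shared between genes were counted is not given in the sources used here, so that part of a value may belong to a related gene.

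B2m, the light chain shared by all class I molecules (chromosome 2, 122147686 to 122153083, plus strand), shares no such stretch and showed the same direction. It had 203768, 199331 and 199859 normalised reads in KO LPS libraries, against 129556, 136804 and 154750 in WT LPS libraries. With IFNg the values were 201862, 211655 and 208942 in KO and 164465, 178512 and 173610 in WT cells. With IL4 they were 162154, 160287 and 165606 in KO and 106657, 108264 and 106043 in WT cells, and in controls 78593, 80860 and 85928 in KO and 64682, 63870 and 61486 in WT cells. No KO library overlapped with a WT library of the same treatment, and KO IL4 libraries exceeded all WT LPS libraries. The excess in KO cells was 1.44-fold with LPS, 1.21-fold with IFNg, 1.52-fold with IL4 and 1.29-fold in controls (limma adjusted p = 5.3e-07, 0.0036, 5.9e-08 and 1.4e-04). LPS raised it by 1.30 ± 0.06 in KO and 1.14 ± 0.06 in WT cells, IFNg by 1.34 ± 0.06 in KO and 1.44 ± 0.06 in WT cells, and IL4 by 0.99 ± 0.06 in KO and 0.76 ± 0.06 in WT cells.

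Divided by the length of 1 GENCODE transcript per gene, B2m was the highest of the 10 genes in every group, from 241263 normalised reads per kb in KO IFNg libraries to 73658 in WT controls. H2-D1 came next, from 60915 per kb in KO IFNg to 25961 in WT controls. Nlrc5 was the lowest in every group, from 2888 per kb in KO LPS libraries to 103 in WT controls.

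Tap1, a subunit of the peptide transporter (chromosome 17, 34187553 to 34197225, plus strand), combined a large response with a genotype difference that depended on the treatment. It had 22042, 21966 and 23852 normalised reads in KO LPS libraries, against 19281, 19527 and 17314 in WT LPS libraries. With IFNg the values were 18511, 15749 and 16781 in KO and 16958, 15422 and 15428 in WT cells, which overlapped. With IL4 they were 2299, 2512 and 2398 in KO and 1216, 1282 and 1198 in WT cells, and in controls 1142, 1214 and 1110 in KO and 917, 953 and 987 in WT cells. WT IL4 libraries therefore overlapped with untreated KO libraries. LPS raised Tap1 19.6-fold in both genotypes and IFNg 14.7-fold in KO and 16.7-fold in WT cells, while IL4 raised it 2.08-fold in KO and 1.29-fold in WT cells. The KO excess was 1.95-fold with IL4 (limma adjusted p = 3.0e-11), 1.21-fold with LPS (limma adjusted p = 0.0020) and 1.21-fold in controls (limma adjusted p = 0.0042), and 1.07-fold with IFNg, which was not called (limma adjusted p = 0.51). The response to IL4 was larger in KO cells by 0.68 ± 0.09 (limma adjusted p = 8.6e-06), and the responses to LPS and IFNg differed by -0.00 ± 0.09 and -0.19 ± 0.09, which were not called.

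Tapbp, which codes for tapasin (chromosome 17, 33915899 to 33929292, plus strand), was raised by all 3 treatments. Its means were 48534 ± 2258 in KO LPS and 41126 ± 1011 in WT LPS libraries, 42006 ± 2266 in KO IFNg and 36862 ± 1239 in WT IFNg libraries, 33826 ± 744 in KO IL4 and 22851 ± 286 in WT IL4 libraries, and 9790 ± 187 in KO and 7465 ± 454 in WT controls (SD, n = 3 each). IL4 raised it 3.45-fold in KO and 3.06-fold in WT cells, and LPS 4.95-fold in KO and 5.51-fold in WT cells. It was higher in KO cells by 0.57 ± 0.05 with IL4, 0.39 ± 0.05 in controls and 0.24 ± 0.05 with LPS (limma adjusted p = 9.9e-09, 5.9e-06 and 0.0011). With only the KO and WT LPS libraries in the fit the LPS difference was not called (limma adjusted p = 0.072). The excess of 0.19 ± 0.05 with IFNg (limma adjusted p = 0.017) was lost without KO IFNg 1 or 3 or WT IFNg 2 or 3 (limma adjusted p = 0.11, 0.056, 0.063 and 0.095). Of its stretches of 50 bases, 19.0% also occur in the gene model Gm19412.

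Psmb8 (LMP7, the inducible counterpart of Psmb5; chromosome 17, 34197721 to 34201454, plus strand) had 9167, 9391 and 9761 normalised reads in KO LPS libraries and 9518, 9894 and 9327 in WT LPS libraries. With IFNg it had 7793, 7892 and 7755 in KO and 8299, 7644 and 8042 in WT cells. The genotypes overlapped with both treatments. With IL4 it had 5122, 5624 and 5193 in KO and 3214, 3214 and 3307 in WT cells, and in controls 1756, 1986 and 1814 in KO and 1599, 1512 and 1578 in WT cells, without overlap. The KO excess was 1.64-fold with IL4 (limma adjusted p = 1.3e-10) and 1.18-fold in controls (limma adjusted p = 0.0018). The response to IL4 was larger in KO cells by 0.47 ± 0.07 (limma adjusted p = 8.5e-05). The responses to LPS and IFNg were smaller in KO cells by interaction terms of -0.26 ± 0.07 and -0.28 ± 0.07 (limma adjusted p = 0.017 and 0.031). The LPS term was not called without WT LPS 2, KO control 2 or WT control 2 (limma adjusted p = 0.053, 0.066 and 0.053), and the IFNg term in 8 of the 12 fits that left out 1 library (limma adjusted p of up to 0.12).

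Psmb9 (LMP2, the counterpart of Psmb6; chromosome 17, 34181987 to 34187764, minus strand) was called different between the genotypes with IL4 and in none of the other 3 comparisons. Its means were 4309 ± 193 in KO LPS and 4139 ± 235 in WT LPS libraries, 3777 ± 168 in KO IFNg and 4040 ± 329 in WT IFNg libraries (SD, n = 3 each), and controls held 502, 538 and 499 normalised reads in KO and 486, 483 and 510 in WT cells. None of these 3 pairs was called different. With IL4, KO libraries held 1254, 1408 and 1262 and WT libraries 986, 973 and 1019 normalised reads, a 1.32-fold excess in KO cells (limma adjusted p = 7.6e-05). Its larger IL4 response in KO cells, 0.34 ± 0.09 (limma adjusted p = 0.029), was not called without KO IL4 2, WT IL4 1, WT IL4 2, KO control 1, KO control 3 or WT control 3 (limma adjusted p = 0.091, 0.070, 0.078, 0.083, 0.068 and 0.073). Because Psmb9 and Tap1 start close together on opposite strands, 12.5% of the 50-base stretches of Psmb9 also occur in Tap1 transcripts, and whether counting used strand is not given in the sources used here.

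Psmb10 (MECL-1, the counterpart of Psmb7; chromosome 8, 105935735 to 105938444, minus strand) had its highest mean in WT LPS libraries. It had 5576, 4321 and 5342 normalised reads in KO LPS libraries, against 6722, 6762 and 5136 in WT LPS libraries, which overlapped. With IFNg the values were 3876, 2936 and 3208 in KO and 3856, 3113 and 2965 in WT cells. With IL4 they were 3461, 4641 and 4117 in KO and 3519, 3127 and 3437 in WT cells, and in controls 970, 1069 and 909 in KO and 678, 706 and 762 in WT cells. Only the controls did not overlap, and KO controls were 1.37-fold higher (limma adjusted p = 0.024), a call lost without KO control 1 or 2 or WT control 1 or 2 (limma adjusted p = 0.066, 0.13, 0.10 and 0.077). LPS raised Psmb10 5.15-fold in KO and 8.61-fold in WT cells, a smaller response in KO cells by an interaction term of -0.74 ± 0.18 (limma adjusted p = 0.0076) that stayed called in every alternative run. The KO difference with LPS itself, -0.29 ± 0.13, was not called (limma adjusted p = 0.11), but it was without WT LPS 3, the lowest of the WT LPS libraries (-0.42, limma adjusted p = 0.022). IL4 raised the gene 4.12-fold in KO and 4.69-fold in WT cells, and IFNg 3.38-fold in KO and 4.60-fold in WT cells; the interaction terms, -0.19 ± 0.18 for IL4 and -0.44 ± 0.18 for IFNg, were not called (limma adjusted p = 0.83 and 0.31), and IL4 was not tested against IFNg.

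Each inducible subunit was set beside its constitutive counterpart as a share of the pair, from values divided by transcript length. Psmb9 made up 21.7 ± 1.04% of the Psmb9 and Psmb6 pair in KO LPS and 25.3 ± 1.84% in WT LPS libraries, 27.2 ± 1.07% in KO IFNg and 35.8 ± 1.36% in WT IFNg libraries, 17.5 ± 0.520% in KO IL4 and 14.6 ± 0.133% in WT IL4 libraries, and 7.77 ± 0.325% in KO and 9.57 ± 0.103% in WT controls (SD, n = 3 each). The KO share was thus lower without overlap in IFNg, LPS and control libraries and higher in IL4 libraries. Psmb6 itself was higher in KO cells by 0.35 ± 0.07 with LPS, 0.48 ± 0.07 with IFNg and 0.39 ± 0.07 in controls (limma adjusted p = 0.0010, 4.8e-05 and 8.4e-04), and by 0.08 ± 0.07 with IL4, which was not called (limma adjusted p = 0.68). Psmb10 made up 57.2 ± 2.28% of its pair with Psmb7 in KO LPS and 64.3 ± 5.40% in WT LPS libraries, 48.1 ± 4.23% in KO IFNg and 48.3 ± 3.61% in WT IFNg libraries, 64.3 ± 3.94% in KO IL4 and 62.7 ± 3.21% in WT IL4 libraries, and 35.9 ± 1.11% in KO and 28.5 ± 2.00% in WT controls. Only in controls did the genotypes not overlap. Psmb8 made up 95.6 ± 1.11% of its pair with Psmb5 in KO LPS and 94.1 ± 0.239% in WT LPS libraries, without overlap, and 94.2 ± 0.311% in KO IFNg and 94.4 ± 0.158% in WT IFNg libraries, which overlapped. It made up 92.2 ± 0.850% in KO IL4 and 85.9 ± 0.918% in WT IL4 libraries, and 82.3 ± 1.87% in KO and 81.1 ± 1.32% in WT controls. Psmb5 values are uncertain, since 57.1% of its 50-base stretches occur in other genes (49.4% of all its stretches in the gene model Gm3375) and its value in KO LPS 1 rests on 7 reads, and 28.1% of the stretches of Psmb7 occur in the neighbouring Nek6. With 3 libraries against 3 an exact permutation test cannot give a two-sided p below 0.10, and no test was run on the shares.

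**Figure D4:**
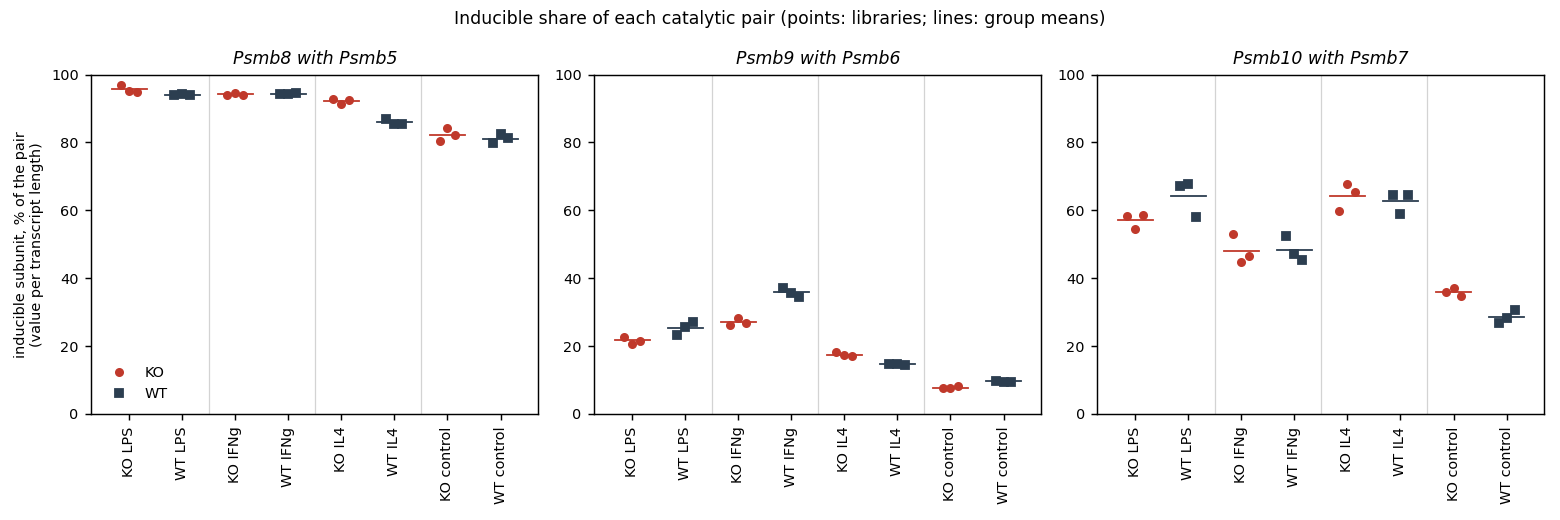
Share of the inducible subunit in each catalytic pair, in percent of values per transcript length, by library; circles are KO, squares WT and lines group means. The Psmb9 share lies between 34.5 and 37.2% in WT IFNg libraries and between 26.2 and 28.3% in KO IFNg libraries, while the Psmb8 share with IL4 lies between 91.3 and 92.9% in KO and between 85.4 and 87.0% in WT libraries.

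Nlrc5, the class I transactivator (chromosome 8, 94434356 to 94527272, plus strand), had the largest response of the 10 genes to LPS and IFNg. It had 20341, 22670 and 22636 normalised reads in KO LPS libraries and 20125, 19347 and 20713 in WT LPS libraries. With IFNg the values were 15455, 15307 and 15120 in KO and 14973, 14446 and 14966 in WT cells. With IL4 they were 2118, 1970 and 1914 in KO and 1083, 1004 and 1019 in WT cells, and in controls 915, 830 and 911 in KO and 793, 818 and 725 in WT cells. The 8 groups fell in the order LPS, IFNg, IL4 and control with KO above WT within each, and neighbours overlapped only with LPS. LPS raised it 24.7-fold in KO and 25.8-fold in WT cells, IFNg 17.3-fold in KO and 19.0-fold in WT cells, and IL4 2.26-fold in KO and 1.33-fold in WT cells. With IL4 it was 1.93-fold higher in KO cells (limma adjusted p = 6.1e-12), and its IL4 response was larger in KO cells by 0.76 ± 0.08 (limma adjusted p = 3.3e-07). The KO difference was 0.05 ± 0.06 with IFNg, which was not called (limma adjusted p = 0.77). With LPS it was 0.12 ± 0.06 (limma adjusted p = 0.12), and it was called without KO LPS 1, the shallowest library (0.18, limma adjusted p = 0.032). In controls it was 0.19 ± 0.06 (limma adjusted p = 0.044), a call lost without KO control 1 or 3 or WT control 1 or 3 (limma adjusted p = 0.20, 0.17, 0.075 and 0.28).

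Set directly against each other in WT cells, IFNg gave higher values of the heavy and light chain genes, and LPS gave higher values of both loading genes, Psmb8, Psmb10 and Nlrc5. Values of all genes summed to between 31791425 and 33267115 in WT LPS and between 25510874 and 26196230 in WT IFNg libraries. In KO cells the sums were between 34930113 and 37512449 with LPS and between 26927928 and 27192151 with IFNg. A lower value with IFNg, as of Tap1, Tapbp and Psmb8 in WT cells, is thus not always a lower share of all reads. In KO cells 2 of 10 genes were higher with IFNg than with LPS (23.1% of all genes) and 6 were lower (19.8% of all genes). In WT cells 4 of 10 were higher (19.0% of all genes) and 5 lower (19.2% of all genes). The 4 in WT cells were H2-K1, H2-D1, H2-T23 and B2m, by 0.19 to 0.30. H2-T23 was not called without WT IFNg 1 or WT LPS 3 (limma adjusted p = 0.086 and 0.080). In KO cells H2-D1 and H2-T23 were higher by 0.16 ± 0.06 and 0.22 ± 0.08 (limma adjusted p = 0.037 and 0.033), and both calls were lost without KO IFNg 1, KO LPS 1 or KO LPS 2 (limma adjusted p = 0.15, 0.13 and 0.098 for H2-D1 and 0.15, 0.065 and 0.14 for H2-T23), that of H2-D1 also without KO IFNg 3 (limma adjusted p = 0.071). Psmb10 and Nlrc5 were lower with IFNg than with LPS, Psmb10 by -0.61 ± 0.13 in KO and -0.90 ± 0.13 in WT cells and Nlrc5 by -0.52 ± 0.06 in KO and -0.44 ± 0.06 in WT cells. Psmb9 was lower in KO cells, -0.19 ± 0.06 (limma adjusted p = 0.017; 0.079 without KO IFNg 3 and 0.073 without KO LPS 3), and Tapbp in WT cells, -0.16 ± 0.05 (limma adjusted p = 0.015; 0.071 without WT IFNg 3 and 0.061 without WT LPS 2). Both calls were lost with edgeR (edgeR adjusted p = 0.081 for Psmb9 and 0.085 for Tapbp) and that of Tapbp with median centring (limma adjusted p = 0.10), and that of H2-D1 in KO cells was lost with a pseudocount of 8, with no filter and with only the libraries compared (limma adjusted p = 0.053, 0.051 and 0.14). In the IFNg libraries 5 dendritic cell markers summed to between 657 and 701 in KO and between 753 and 845 in WT cells, and to at most 38.6 elsewhere. Clec9a and Xcr1 made up most of that sum, Flt3 did not exceed 1.75 and Siglech 2.44 in any library, and the part of these genes in the result was not tested.

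Related genes were counted in lists. Of 14 other class I and class I-like heavy chains, 10 were higher and 0 lower in KO than in WT cells with IL4 (median 0.75), where 6.14% of all genes were higher and 3.14% lower. H2-Q6 had 992, 1058 and 962 normalised reads in KO IL4 libraries, against 363, 375 and 378 in WT IL4 libraries, a 2.69-fold difference, and H2-T24, H2-Q4 and H2-T22 were 2.93-, 2.00- and 2.03-fold higher. H2-Q6 rose by 0.95 with IL4 in KO cells (limma adjusted p = 4.3e-11), and in WT cells its difference was -0.04 (limma adjusted p = 0.79). In controls 6 of the 14 were higher in KO cells (4.11% of all genes), with LPS 6 (9.70%) and with IFNg 7 (4.83%), and 0 were lower. H2-M2 rose most in this list with IL4, 6.55 in KO and 6.53 in WT cells on the log2 scale. These genes share reads with each other and with the classical heavy chains to an unknown extent.

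Of 9 peptide loading and trimming partners, 3 were higher in KO cells with IL4 (6.14% of all genes) and 2 in controls (4.11%). They included Tapbpl, a tapasin relative, by 1.86-fold with IL4 and 1.47-fold in controls, and the trimming peptidase Erap1, by 1.53-fold with IL4 and 1.26-fold in controls. Tap2, the transporter's other subunit, was the third with IL4, at 1.36-fold (limma adjusted p = 0.046). With LPS 0 of the 9 were higher and 1 lower (9.70% and 12.5% of all genes), and with IFNg 0 were called (4.83% of all genes higher, 4.21% lower). Of 8 proteasome activator and assembly genes, 3 were higher in KO cells with IL4, beside 6.14% of all genes. These were Psme2 and Psme1, the subunits of the interferon-inducible activator, by 1.71- and 1.52-fold, and the assembly factor Pomp by 1.26-fold. In controls 1 of the 8 was higher (4.11% of all genes), with LPS 1 was lower (12.5%), and with IFNg 0 were called. Of 11 other core subunits 1 was called with IL4, Psma4 at 1.27-fold, a share near that of all genes, and 0 of 11 in controls. With LPS 2 of the 11 were lower, beside 12.5% of all genes, and with IFNg 0 were called. The constitutive catalytic subunits Psmb5, Psmb6 and Psmb7 gave 0 calls between KO and WT with IL4 (6.14% of all genes higher, 3.14% lower). With LPS Psmb6 was higher and Psmb5 lower in KO cells (-0.49 ± 0.16, limma adjusted p = 0.025), beside 9.70% and 12.5% of all genes. LPS raised Psmb6 and Psmb7 by 1.35 and 1.11 in KO and by 1.39 and 0.92 in WT cells and IFNg by 0.73 and 1.03 in KO and by 0.64 and 0.97 in WT cells. Psmb5 was called higher in WT cells with LPS (0.73 ± 0.16) and IL4 (0.55 ± 0.16) and in no treatment of KO cells. Both LPS results of Psmb5 in KO cells are uncertain. Its KO LPS values were 165, 269 and 295 normalised reads, and the lowest, in KO LPS 1, rests on 7 reads. Its LPS response in KO cells, 0.11 ± 0.16, ran from -0.06 to 0.36 over 14 alternatives and was called in at least 1 of them.

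Among 18 transcription factors known to act on class I genes, 5 were higher and 0 lower in KO than in WT cells with IL4 (6.14% of all genes higher, 3.14% lower). With LPS 6 were higher and 1 lower (9.70% and 12.5% of all genes), with IFNg 2 and 1 (4.83% and 4.21%), and in controls 2 and 2 (4.11% and 3.05%). Stat2 had 3993, 3705 and 3922 normalised reads in KO IL4 libraries, against 1837, 1810 and 1876 in WT IL4 libraries, and 1151, 1178 and 1175 in KO controls, against 1243, 1487 and 1170 in WT controls. Irf9, its partner in the type I interferon complex, had 1949, 1965 and 1902 in KO IL4 and 1145, 1198 and 1215 in WT IL4 libraries. For both the IL4 libraries of the genotypes did not overlap, while their control libraries did. The IL4 response was larger in KO cells by 1.22 ± 0.09 for Stat2 and 0.87 ± 0.08 for Irf9 (limma adjusted p = 7.0e-10 and 4.5e-08). Irf1 was 1.68-fold higher in KO cells with IL4, 1.76-fold with LPS and 1.43-fold in controls. Irf8, an interferon regulatory factor of myeloid cells, had 33666, 30370 and 33398 normalised reads in KO LPS libraries, against 7757, 7449 and 7357 in WT LPS libraries, a 4.31-fold difference (limma adjusted p = 1.5e-18). It was 1.55-fold higher in KO cells with IFNg and 1.27-fold in controls, and with IL4 the 1.09-fold difference was not called (limma adjusted p = 0.16).

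Of 10 interferon receptor and signalling genes, 2 were higher and 2 lower in KO than in WT cells with IL4 (6.14% and 3.14% of all genes). With LPS 1 was higher and 6 lower (9.70% and 12.5% of all genes), with IFNg 0 and 1 (4.83% and 4.21%), and in controls 1 and 3 (4.11% and 3.05%). Ifngr1, a receptor subunit for interferon gamma, was lower in KO cells in all 4 comparisons, at 0.763 of the WT level with LPS, 0.668 with IFNg, 0.656 with IL4 and 0.714 in controls. Ifnb1, which codes for interferon beta, had 236, 218 and 203 normalised reads in KO LPS libraries, against 20.4, 29.8 and 44.0 in WT LPS libraries (limma adjusted p = 2.5e-05). In the IL4 libraries neutrophil markers summed to between 29.0 and 43.7 in KO and between 78.2 and 105 in WT cells and fibroblast markers to between 338 and 465 in KO and between 488 and 496 in WT cells, and their part in the KO differences was not tested.

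The 10 genes followed each other to different degrees over the 24 libraries, which fall into 8 groups and so are described without a test. Tap1 and Nlrc5 were the most alike pair (Pearson r of 1.00) and H2-D1 and Psmb10 the least (r of 0.46). Each gene against the mean of the other 9 gave between 0.734 for H2-D1 and 0.982 for Psmb8. Among 9484 other genes with a group mean of at least 100, Cybb (0.986), a subunit of the phagocyte NADPH oxidase, and Tmbim4 (0.986), Zbp1 (0.985), Agtrap (0.985) and Msn (0.981) were most like the mean of the 10. Zbp1, a sensor of Z-form nucleic acids, averaged 2896 ± 5.65 normalised reads in KO IL4 and 792 ± 14.3 in WT IL4 libraries, and 216 ± 5.47 in KO and 185 ± 27.6 in WT controls (SD, n = 3 each). Cybb averaged 112900 ± 8446 in KO IL4 and 64534 ± 696 in WT IL4 libraries, and 43497 ± 3110 in KO and 28471 ± 1896 in WT controls.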

How the data were processed

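The deposited table holds signal values: reads per gene that the authors scaled by 1 factor per library. Per the submitters' processing notes the tools were TopHat2 2.2.1, Cufflinks 2.2.1 and Cuffdiff with builds mm10 and GRCm38; how reads shared between genes were counted and whether strand was used are not given in the sources used here. The factor was recovered from the steps between low values, and 100% of the values in every library came out as whole reads within 0.05 reads. Groups follow the labels.

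The main test was limma 3.58.1 (R 4.3.3) on log2(value + 1), with 1 mean per group over all 24 libraries, a mean-variance trend, for genes that reached a value of 1 in 3 or more libraries. edgeR 4.0.16 and DESeq2 1.42.0 on the recovered reads called 10841 and 10144 genes for LPS against control in KO cells, where limma called 10631. Only the limma fit was tested on simulated data, with changes placed in the KO IFNg libraries, and the other steps were not. Transcript lengths and shared 50-base stretches come from GENCODE M21. The naming rule covers all 10 genes, Psmb5, Psmb6 and Psmb7, and from each other list up to 4 genes with the smallest p per comparison, of which the text gives some. The 5 most similar genes by Pearson r leave out predicted genes, pseudogenes and RNA genes. The members and lists were chosen with earlier results of these data known. The listed macrophage marker Adgre1 was not analysed here. A fold change on this scale understates the change of low genes.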

Additional observations from a re-analysis of the deposited data

Results flagged for a closer look

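For 7 gene and treatment pairs the 2 genotypes responded differently to the same treatment by the interaction term (KO response minus WT response; limma with Benjamini-Hochberg adjustment over 18637 genes, 3 libraries in each of the 4 groups). For Tap1 and IL4 the term was 0.68 (limma adjusted p = 8.6e-06), with a 2.08-fold response in KO and 1.29-fold in WT cells. For Nlrc5 and IL4 it was 0.76 (limma adjusted p = 3.3e-07), with 2.26-fold in KO and 1.33-fold in WT cells. For Psmb8 and IL4 it was 0.47 (limma adjusted p = 8.5e-05), with 2.87-fold in KO and 2.08-fold in WT cells. For Psmb9 and IL4 it was 0.34 (limma adjusted p = 0.029), with 2.54-fold in KO and 2.01-fold in WT cells. For Psmb10 and LPS it was -0.74 (limma adjusted p = 0.0076), with 5.15-fold in KO and 8.61-fold in WT cells. For Psmb8 it was -0.26 with LPS (limma adjusted p = 0.017) and -0.28 with IFNg (limma adjusted p = 0.031), with 5.10-fold in KO and 6.13-fold in WT cells for LPS and 4.22-fold in KO and 5.11-fold in WT cells for IFNg. Over all 20 alternatives of each, the adjusted p reached at most 6.1e-05 for Tap1, 9.4e-06 for Nlrc5, 5.5e-04 for Psmb8 with IL4 and 0.029 for Psmb10, while it reached 0.091 for Psmb9 and 0.085 and 0.12 for Psmb8 with LPS and IFNg.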

How the results depend on the processing

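Of 2280 log2 differences of the 10 genes recomputed under an alternative, 2200 kept their side of the threshold, 70 were no longer called, 10 became called and 0 of the called ones changed sign. The counts of called genes among the 10 for LPS, IFNg and IL4 against control did not change in either genotype. For KO against WT with IFNg the count was between 2 and 4 on leaving out 1 library each (4 in all libraries), and for the genotype interaction with LPS between 1 and 2 (2 in all libraries), falling to 1 with only the libraries compared, without the 3 shallowest libraries (an alternative chosen after seeing the data) and with edgeR, each time by the loss of Psmb8. For the interaction with IFNg it was between 0 and 1 on leaving out 1 library each, 0 with edgeR and 2 with DESeq2, which added Tapbp. For the interaction with IL4 (4 genes), edgeR lost Psmb9 (edgeR adjusted p = 0.057) and DESeq2 added B2m (0.24, DESeq2 adjusted p = 0.016). Nlrc5 between KO and WT controls was also lost with no filter, with only the libraries compared, without the 3 shallowest libraries and with edgeR (limma adjusted p = 0.056, 0.12 and 0.16 and edgeR adjusted p = 0.13). Psmb10 between KO and WT became called with edgeR for LPS (-0.32, edgeR adjusted p = 0.027) and for IL4 (0.29, edgeR adjusted p = 0.043), and Nlrc5 for LPS with DESeq2 (0.14, DESeq2 adjusted p = 0.024). Centring each library on its median moved the median of all genes by -0.12 for LPS in WT cells, and the median of the 10 genes by as much.

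The labels number the libraries 1 to 3 in each group, and the values showed no pairing by these numbers. This measure cannot tell whether same-numbered libraries came from the same mouse or culture. Over 84 pairs of same-numbered libraries from different groups, the correlation of deviations from the group mean ran from -0.55 to 0.47 (median 0.00). Over 168 pairs with different numbers it ran from -0.54 to 0.58. Of the 24 libraries, 3 correlated best with their own number. With the replicate block, the calls of H2-T23 between KO and WT with IFNg and of Nlrc5 between KO and WT controls were lost (limma adjusted p = 0.061 and 0.059).

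Counts over all genes moved by over 1.5 times in some comparisons. With only the libraries compared, IL4 in WT cells had 5674 calls (3749 in all libraries), KO against WT 1542 with LPS (4141), 2539 with IFNg (1686) and 3350 with IL4 (1731), and the interaction 874 with LPS (1639) and 1115 with IL4 (672). Without the 3 shallowest libraries, KO against WT had 2848 calls with IFNg and 2720 with IL4, and the IL4 interaction 1030. With edgeR, KO against WT had 2533 calls with IFNg and 2862 with IL4, and with DESeq2 2588 and 2722, and DESeq2 gave 844 for the IFNg interaction (466 with limma) and 1169 for the IL4 interaction.

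Without division by transcript length, the Psmb8 share was 97.5% in KO LPS, 96.6% in WT LPS, 96.7% in KO IFNg, 96.8% in WT IFNg, 95.5% in KO IL4, 91.7% in WT IL4, 89.4% in KO control and 88.6% in WT control libraries. The Psmb9 share was 31.9% in KO LPS, 36.4% in WT LPS, 38.7% in KO IFNg, 48.5% in WT IFNg, 26.5% in KO IL4, 22.4% in WT IL4, 12.5% in KO control and 15.2% in WT control libraries. The Psmb10 share was 60.2% in KO LPS, 67.1% in WT LPS, 51.1% in KO IFNg, 51.4% in WT IFNg, 67.0% in KO IL4, 65.5% in WT IL4, 38.8% in KO control and 31.1% in WT control libraries. The lowest read number of the 10 genes in any library was 183, and that of Psmb5 was 7, in KO LPS 1. The cause of the other changes was not tested.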
